A study of Mus musculus with 123 samples.

Results

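The levels of 10 nuclear receptor genes were followed through preimplantation mouse development with and without Oct4 or Sox2: Nr5a2, Nr0b1, Nr6a1, Nr2c2, Rara, Rarg, Rxra, Rxrb, Esrra and Ppard. They are identified by symbol, and all 10 were among the 29022 genes of the deposited count table. Transcripts had been counted in single embryos as unique molecular identifiers (UMIs), random tags that let PCR copies of a molecule be counted once. A gene was tested if it had a UMI in at least a 0.5 share of the embryos of at least 1 stage, which 9 of the 10 members and 14053 genes in all did. Nr0b1 did not, and its UMIs are given embryo by embryo.

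The embryos fell into 16 groups. Males carrying 1 knockout allele (Pou5f1 +/mKO2 or Sox2 +/EGFP, with the fluorescent reporter under the PGK promoter) had been mated with flox/flox females carrying Zp3-Cre, which acts in the oocyte. Fluorescent embryos lacked the maternal and the zygotic gene (KO). Unlabelled embryos of the same kind of mating lacked the maternal gene but kept an intact paternal allele (Ctrl), so that KO and Ctrl both developed without maternal protein. Embryos of a further kind were labelled Oct4_Ctrl_MWT or Sox2_Ctrl_MWT (MWT, read here as maternal wild type, although the sources used here do not spell it out). Morulae were whole embryos at E2.75. Early (E3.75) and late (E4.5) inner cell masses (ICMs) came, in all but the Oct4 MWT early ICMs, from embryos labelled as cultured in KSOM medium with 1 µM of the MEK inhibitor PD0325901, used to suppress primitive endoderm, and were isolated by immunosurgery. Ctrl and KO embryos were sampled at all 3 stages in both lines, Oct4 MWT at all 3 stages and Sox2 MWT as early ICMs. Each group held 8 embryos except Oct4 MWT morulae and Sox2 MWT early ICMs with 7 and Oct4 MWT early ICMs with 5. The strain label was B6C3F1 throughout. Stage, culture, inhibitor and isolation cannot be told apart between morulae and ICMs.

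Nuclear receptors are transcription factors that bind DNA through zinc fingers, and many of them switch genes on or off in answer to a small lipid-like ligand. The retinoic acid receptors (Rara, Rarg) and the fatty acid receptor Ppard bind DNA as partners of the retinoid X receptors (Rxra, Rxrb), whereas Nr5a2 and Esrra can bind extended half-sites as monomers. Orphan receptors have no established physiological ligand. Nr5a2 and Esrrb belong to the factors that can sustain the pluripotency network of mouse embryonic stem cells, Nr0b1 (Dax1) is expressed in those cells and lacks the usual DNA-binding domain, and Nr6a1 (GCNF) is known as a repressor of Pou5f1 once pluripotency is left.

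Total UMIs per embryo ran from 525755 to 1344035, and levels are given as CPM, UMI counts brought to a common library total after TMM scaling. Genotype labels were checked on the targeted genes: Pou5f1 averaged 0.431, 1.03 and 0.156 CPM in Oct4 KO morulae, early ICMs and late ICMs against 21.1, 77.7 and 43.8 CPM in Ctrl, and Sox2 fell by 2.97, 2.12 and 3.35 on the log2 scale in Sox2 KO embryos. Some Sox2 reads remained, at means of 1.56, 24.3 and 16.7 CPM in Sox2 KO against 13.7, 106 and 174 CPM in Ctrl. Epiblast markers were present in all ICM groups with none of 9 at 0. Their summed level was 2860 to 4280 CPM in Oct4 Ctrl and 2670 to 4320 CPM in Sox2 Ctrl late ICMs against 550 to 1060 CPM in Ctrl morulae. For the Oct4 MWT ICMs the labels disagreed on the stage. The embryos titled early ICM had the source name E2.75 morula and no inhibitor listed, and those titled late ICM had the source name E3.75 early ICM with the inhibitor, so that age and treatment are uncertain for these 2 groups. The title was used, and the 5 embryos titled early ICM had 1770 to 3950 CPM of epiblast markers, above the 655 to 1160 CPM of the Oct4 MWT morulae. In these bulk samples fewer cells of a type and less RNA per cell cannot be told apart.

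The promoter windows of the members were searched for the nuclear receptor half-site AGGTCA, on both strands, in the 250 bases upstream of each annotated RefSeq start (GRCm38.p6). The half-site was in 14% of 32851 promoter windows of all genes and in 5 of the 18 member windows, those of Nr5a2, Nr0b1, Nr6a1, Rarg and Rxra. Windows with the half-site are printed for 4 of these genes. Nr6a1 and Rxra were called in Oct4 KO late ICMs, Nr0b1 had no UMI in KO late ICMs, and the set is named for Nr5a2. Nr2c2 and Ppard, also called in Oct4 KO late ICMs, had no half-site in their windows, which are not printed. Sequences run 5′ to 3′ on the strand of the gene, and capitals mark the half-site, as AGGTCA or as its complement TGACCT. A match is a description of these letters and not a bound site.
Nr5a2, chr1:136960449-136960698, minus strand: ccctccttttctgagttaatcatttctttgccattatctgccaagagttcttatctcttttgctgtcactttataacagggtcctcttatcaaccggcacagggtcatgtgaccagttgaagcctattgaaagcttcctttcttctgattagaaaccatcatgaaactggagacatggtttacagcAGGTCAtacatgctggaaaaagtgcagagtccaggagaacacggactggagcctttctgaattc
Nr0b1, chrX:86191525-86191774, plus strand: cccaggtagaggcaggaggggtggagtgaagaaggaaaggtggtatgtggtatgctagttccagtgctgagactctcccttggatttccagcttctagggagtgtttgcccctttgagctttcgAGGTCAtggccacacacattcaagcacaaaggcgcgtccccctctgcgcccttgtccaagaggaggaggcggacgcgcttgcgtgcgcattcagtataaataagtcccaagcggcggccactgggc
Nr6a1, chr2:38784516-38784765, minus strand, a start inside the gene: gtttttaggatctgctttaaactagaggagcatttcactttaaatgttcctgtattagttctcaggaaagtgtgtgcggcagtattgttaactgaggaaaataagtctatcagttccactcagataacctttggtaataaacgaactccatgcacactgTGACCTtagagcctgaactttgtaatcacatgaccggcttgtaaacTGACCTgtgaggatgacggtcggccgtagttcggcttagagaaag
Rxra, chr2:27709042-27709291, plus strand, a start inside the gene: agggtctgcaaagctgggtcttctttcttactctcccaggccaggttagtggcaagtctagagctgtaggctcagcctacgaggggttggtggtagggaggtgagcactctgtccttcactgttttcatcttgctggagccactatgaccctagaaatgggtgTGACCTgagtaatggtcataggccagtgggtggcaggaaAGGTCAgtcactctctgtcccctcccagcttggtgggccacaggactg

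Nr5a2 had 1 half-site, 64 to 59 bases before the start, and Nr0b1 had 1, 126 to 121 bases before it. Nr6a1 and Rxra had 2 each, at 91 to 86 and 45 to 40 bases and at 87 to 82 and 48 to 43 bases before an internal start. The windows at their outermost annotated starts held none. The extended half-site TCAAGGTCA was in 0.387% of all windows, the octamer ATGCAAAT bound by Oct4 in 1.6% and the Sox motif CATTGTT in 3.29%, and none of the 18 member windows held them. The Sox motif CTTTGTT was in 5.03% of all windows and in 2 member windows, 1 of Nr5a2 and 1 of Rara. AGGTCA is part of TCAAGGTCA, so windows with the longer motif are among those with the shorter.

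Nr5a2 (chromosome 1, 136842571 to 136960448, minus strand, mm10) was detected in every embryo, with 19519 UMIs. Group means ran from 275 ± 70 CPM (SD, n = 8) in Sox2 Ctrl morulae down to 110 ± 45.1 CPM (n = 8) in Oct4 Ctrl late ICMs. After Sox2 Ctrl morulae came Oct4 KO morulae (262 ± 58.6 CPM), Oct4 MWT morulae (259 ± 46.8 CPM), Oct4 Ctrl early ICMs (217 ± 39.1 CPM), Sox2 KO morulae (215 ± 27.8 CPM) and Oct4 Ctrl morulae (207 ± 33 CPM). The other early ICM groups followed, between 163 ± 36.8 CPM in Sox2 MWT and 132 ± 16.1 CPM in Sox2 Ctrl, and then the 5 late ICM groups, from 125 ± 31.3 CPM in Sox2 KO to the Oct4 Ctrl value. Every step between neighbours in this order was smaller than the sum of their SDs, and the late ICM groups cannot be ordered among themselves. Oct4 Ctrl early ICMs, at 148 to 269 CPM, were the ICM group whose mean lay among those of the morulae.

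**Figure D1:**
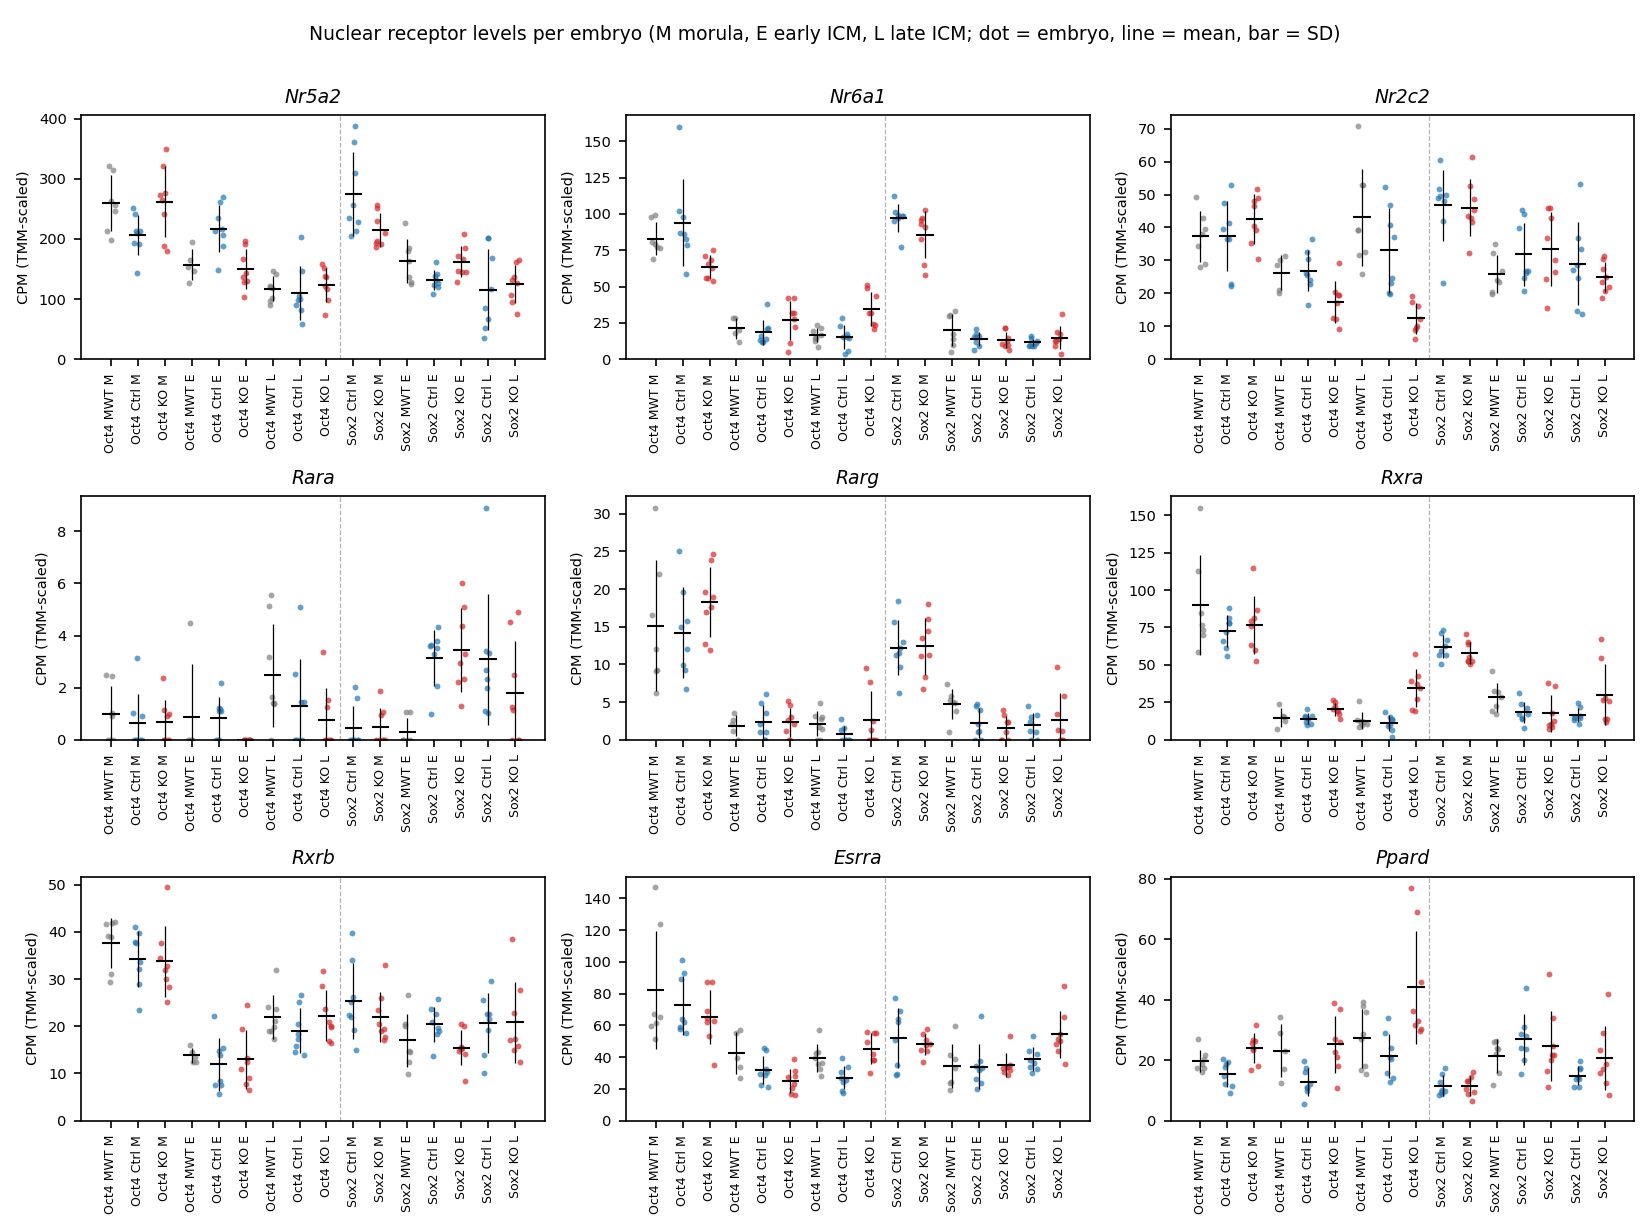
Level of the 9 tested members in every embryo (dots), in TMM-scaled CPM on a linear axis of its own for each gene, with the mean (line) and SD (bar) of the 16 groups; M, E and L stand for morula, early ICM and late ICM, and grey, blue and red for MWT, Ctrl and KO. Nr6a1, Rarg and Rxra are highest in the morula groups, and in Oct4 KO late ICMs Rxra lies above and Nr2c2 below every Oct4 Ctrl late ICM.

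Loss of Oct4 or Sox2 left Nr5a2 within the fold minimum at every stage. A gene was counted as called when edgeR's quasi-likelihood test gave a Benjamini-Hochberg adjusted p under 0.05 and the log2 fold change was at least 1 in size. In early ICMs Nr5a2 was 103 to 197 CPM in the 8 Oct4 KO embryos (median 140) and 148 to 269 CPM in the 8 Ctrl (median 215). All 8 KO embryos lay under the Ctrl median, with overlap of the groups, and the log2 difference of -0.54 ± 0.19 (SE; edgeR adjusted p = 0.0335) stayed under the fold minimum. The KO mean of 150 CPM lay among those of the other early ICM groups (132 to 163 CPM), and the Oct4 Ctrl mean of 217 CPM above them. The other differences of KO from Ctrl were 0.36 ± 0.19 in Oct4 morulae, 0.20 ± 0.20 in Oct4 late ICMs, and -0.33 ± 0.19, 0.28 ± 0.19 and 0.12 ± 0.20 in Sox2 morulae, early and late ICMs, with edgeR adjusted p from 0.444 to 1. Their 95% intervals lay within -0.70 and 0.72, so that a change of 2-fold was outside each of them. The Ctrl and KO late ICMs carried a set number, 1 or 2, in their labels, and in the Sox2 line the log2 ratio of the Nr5a2 means was -0.21 within set 1 and 0.76 within set 2.

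Nr0b1 (chromosome X, 86191764 to 86195947, plus strand) was found in 30 embryos with 146 UMIs in all. Of the late ICMs, 6 of 8 Oct4 Ctrl embryos had 2, 6, 8, 1, 1 and 11 UMIs and 2 had none, whereas all 8 Oct4 KO embryos had 0. Likewise 5 of 8 Sox2 Ctrl embryos had 2, 2, 6, 12 and 2 UMIs and 3 had none, against 0 in all 8 Sox2 KO embryos. With a floor of 3 UMIs over the group, Nr0b1 was at least 10.9-fold lower in Oct4 KO and at least 7.53-fold lower in Sox2 KO late ICMs, counting error only. A two-sided exact permutation test of the mean CPM over embryos, chosen after the data were seen, gave p = 0.00699 for Oct4 and p = 0.0256 for Sox2, or 0.0419 and 0.0768 after Benjamini-Hochberg adjustment over the 6 KO comparisons (the smallest p it allows is 0.000155). The difference in the Sox2 line therefore did not pass adjustment. Oct4 MWT late ICMs, read as keeping the maternal gene and of uncertain stage, had UMIs in 2 of 8 embryos only, 9 and 2.

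In early ICMs the Nr0b1 counts lay the other way in the Oct4 line: KO embryos had 17, 0, 1, 16, 0, 0, 0 and 1 UMIs, 35 in all, against 1 UMI in 1 of 8 Ctrl. Embryos with 17 and 16 UMIs held nearly all of it, the ratio of the sums was 34.3 (exact Poisson interval 5.76 to 1390), and the exact permutation p was 0.0769 (0.154 adjusted). The Sox2 line had 14 UMIs in KO and 8 in Ctrl early ICMs, and the exact permutation p there and in both lines' morulae was 0.467 to 0.733. Nr0b1 is X-linked, and the labels used here give no sex for the embryos.

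**Figure D2:**
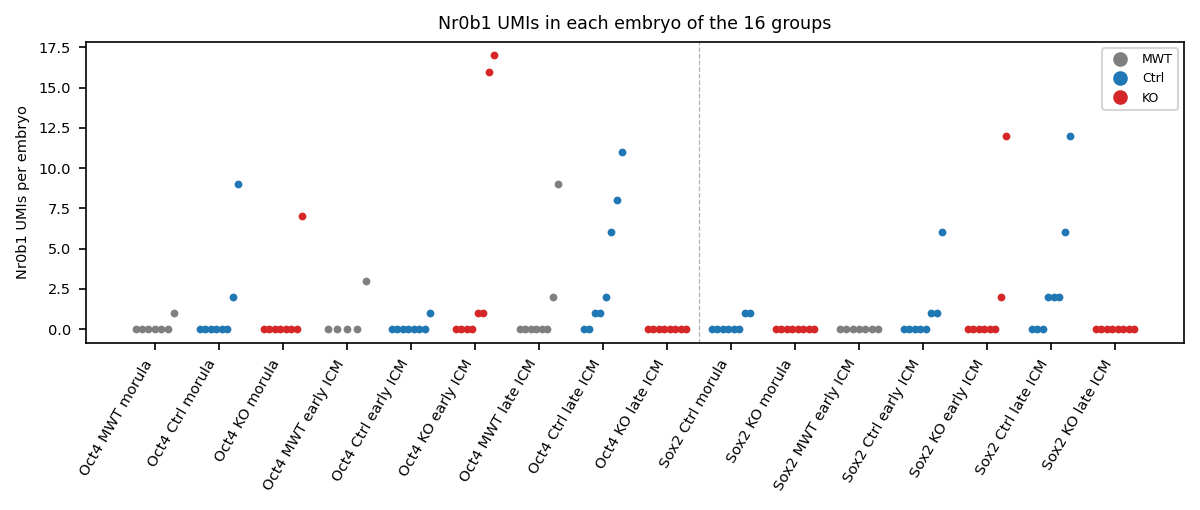
Nr0b1 UMIs in each embryo (dot) of the 16 groups, on a linear axis, coloured by genotype, with a dashed line between the Oct4 and the Sox2 line. All 16 KO late ICMs are at 0, while 11 of the 16 Ctrl late ICMs have at least 1 UMI.

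Oct4 loss changed 4 of the 9 tested receptors in late ICMs: Nr6a1, Rxra and Ppard rose and Nr2c2 fell. Of all 14053 genes tested in this comparison, 18.1% were called. DESeq2 also called 4 members, whereas limma on the deposited rlog values called 2, Nr2c2 and Rxra. The log2 fold changes of the 9 members had a median of 0.76, with 7 above 0, beside a median of -0.01 over all genes.

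Rxra (chromosome 2, 27676440 to 27762957, plus strand) encodes the common partner of retinoic acid, fatty acid and other receptors. It was at 20.2, 42.9, 37.3, 57, 27.5, 19, 39.5 and 34.4 CPM in the 8 Oct4 KO late ICMs and at 10.1, 13, 1.62, 18.4, 14, 8.99, 6.8 and 15.1 CPM in the 8 Ctrl. The lowest KO embryo stood above the highest Ctrl embryo. The ratio of the means was 3.15 and the log2 fold change 1.63 ± 0.28 (edgeR adjusted p = 2.24e-06).

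Nr6a1 (chromosome 2, 38723370 to 38927688, minus strand), the orphan receptor GCNF, was at 43.7, 24.5, 23.6, 49.1, 51.2, 20.6, 32.1 and 31.8 CPM in Oct4 KO and at 23.1, 5.77, 3.23, 17, 28.1, 14.4, 15.3 and 15.1 CPM in Ctrl late ICMs. All 8 KO embryos exceeded the Ctrl median, although the groups overlapped. Its mean was 2.27 times that of Ctrl (log2 1.18 ± 0.28, edgeR adjusted p = 0.000376).

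Ppard (chromosome 17, 28232700 to 28301474, plus strand) encodes PPAR delta, a fatty acid receptor. In Oct4 KO late ICMs it was at 30.3, 68.9, 77.1, 46, 36.2, 31.7, 29.6 and 33.1 CPM and in Ctrl at 28.9, 15.9, 21, 14.1, 23.9, 34.1, 20.4 and 12.6 CPM. One Ctrl embryo, at 34.1 CPM, reached into the KO range, and the log2 fold change was 1.07 ± 0.24 (edgeR adjusted p = 0.000222). This lies close to the fold minimum: without Ctrl embryo 2-9, KO embryo 1-5 or KO embryo 1-7 it was 0.98, 0.96 or 0.91, and with scaling by total UMIs 0.97, under the minimum of 1.

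Nr2c2 (chromosome 6, 92091390 to 92174294, plus strand), the orphan receptor TR4, was the member that fell. It was at 10.1, 12.2, 8.7, 9.51, 16.2, 17.4, 6.17 and 19.1 CPM in Oct4 KO and at 23.1, 24.5, 37.2, 52.3, 19.7, 46.7, 40.8 and 20.1 CPM in Ctrl late ICMs. No KO embryo reached the lowest Ctrl embryo, and the log2 fold change was -1.37 ± 0.25 (edgeR adjusted p = 5.49e-06), a mean 0.376 times that of Ctrl. Mrps25 runs antisense across the last 4770 bases of Nr2c2, and whether reads were assigned by strand is not stated in the sources used here, so reads of these genes may not be separable. Mrps25 itself differed by -0.04 ± 0.18 (edgeR adjusted p = 0.913).

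Esrra (chromosome 19, 6910977 to 6921813, minus strand), an orphan receptor known for control of mitochondrial genes, was at 29.8 to 55.5 CPM (median 45.7) in Oct4 KO and 17.3 to 39.5 CPM (median 26.1) in Ctrl late ICMs. Its difference of 0.76 ± 0.21 on the log2 scale (edgeR adjusted p = 0.0029) passed the test but not the fold minimum, with 8 of 8 KO embryos above the Ctrl median. Its 3′ end shares 73 bases with the antisense gene Trmt112, which differed by -0.05 ± 0.12 (edgeR adjusted p = 0.811). Rxrb (0.24 ± 0.23), Rara (-0.75 ± 0.84) and Rarg (1.59 ± 0.83, 14 UMIs against 4) did not pass, with edgeR adjusted p from 0.14 to 0.535.

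Within set 1 of the late ICMs (4 KO and 5 Ctrl) the log2 ratios of the means were 1.78 for Rxra, 1.19 for Nr6a1, 1.42 for Ppard and -1.63 for Nr2c2. Set 2 (4 KO and 3 Ctrl) gave 1.55, 1.18, 0.55 and -1.28, so that the direction was the same in both sets for all 4 genes and Ppard was under the fold minimum in set 2.

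Markers of other cell types moved with the same comparison. The summed level of 12 trophectoderm markers, the genes of the outer layer, was 1560 to 3550 CPM (median 3220) in Oct4 KO and 303 to 1090 CPM (median 766) in Ctrl late ICMs, with 9 of 12 called higher and none at 0. The 9 epiblast markers summed to 405 to 1230 CPM (median 803) against 2860 to 4280 CPM (median 3420), with 9 of 9 called lower. The 9 primitive endoderm markers summed to 955 to 1740 CPM against 287 to 1550 CPM, and of the 7 tested 2 were called higher (Gata6 and Dab2) and 4 lower (Sox17, Gata4, Pdgfra and Lama1). Their part in the receptor results was not tested.

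**Figure D3:**
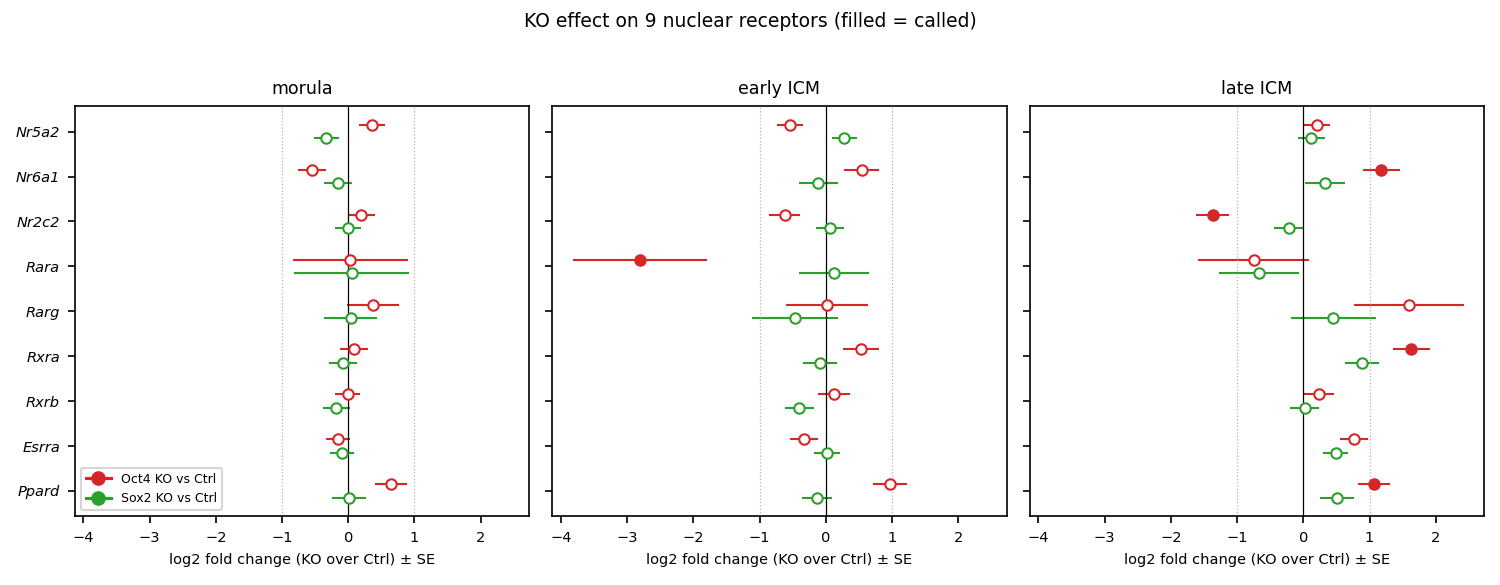
Log2 fold change of KO over Ctrl (point) with its SE (bar) for the 9 tested members in morulae, early ICMs and late ICMs, red for the Oct4 and green for the Sox2 line, filled where called; dotted lines mark the fold minimum of 1. Filled points appear in the Oct4 line alone, for Rara in early ICMs and for Nr6a1, Nr2c2, Rxra and Ppard in late ICMs.

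In Oct4 KO early ICMs edgeR called 1 of the 9 members, Rara. This share of 11.1% is near the 10.9% of all genes called. Rara (chromosome 11, 98927818 to 98974942, plus strand), the retinoic acid receptor alpha, had 0 UMIs in all 8 KO embryos and 6 UMIs in 5 of 8 Ctrl embryos. It was at least 2.04-fold lower (edgeR adjusted p = 0.0364 for the fitted change), and the call rests on these 6 UMIs: it was lost without any 1 of 7 of the 16 embryos (Ctrl 4, 7 and 8; KO 1, 2, 10 and 11), at adjusted p from 0.0503 to 0.0798, and with no filter (edgeR adjusted p = 0.067), and neither DESeq2 nor limma made it. Ppard was at 10.9 to 38.9 CPM (median 24.3) against 5.6 to 19.7 CPM (median 11.5), higher by 0.97 ± 0.25 (edgeR adjusted p = 0.00282), just under the fold minimum. It passed the minimum without any 1 of 6 embryos (Ctrl 4, 6 and 9; KO 1, 2 and 18).

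The Nr2c2 level was 9.08 to 29.2 CPM in Oct4 KO and 16.4 to 36.5 CPM in Ctrl early ICMs, a difference of -0.62 ± 0.23 (edgeR adjusted p = 0.0429) under the fold minimum. Nr6a1 (0.54 ± 0.26), Rxra (0.53 ± 0.27), Rxrb (0.13 ± 0.24), Rarg (0.02 ± 0.62) and Esrra (-0.33 ± 0.21) had edgeR adjusted p from 0.132 to 0.997. The members' median was 0.02 beside 0.01 over all genes. Trophectoderm markers summed to 887 to 1600 CPM in KO and 428 to 1450 CPM in Ctrl, with 3 of 12 called higher (Eomes, Hand1 and Gata3), 1 lower (Elf5) and none at 0. Of 9 epiblast markers 7 were called lower, with summed levels of 1230 to 1940 CPM against 1880 to 3090 CPM. Of the 7 primitive endoderm markers tested Dab2 was called higher and Sox17 and Pdgfra lower. The part of these markers in the receptor values was not tested.

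Sox2 loss left all 9 tested members under the call in all 3 stages. In late ICMs, where 6.95% of all genes were called, edgeR, DESeq2 and limma called 0 members, and 3 members had an unadjusted p under 0.05. Rxra was the one that passed adjustment, at 12.1 to 67.3 CPM (median 26.2) in KO and 10.7 to 24.8 CPM (median 15) in Ctrl. It was higher by 0.89 ± 0.26 (edgeR adjusted p = 0.0114), under the fold minimum, with 5 of 8 KO embryos above the Ctrl median. Without KO embryo 1-6 the difference was 1.01 (edgeR adjusted p = 0.00347) and passed it, and the log2 ratio was 1.10 within set 1 and 0.51 within set 2.

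Of the other members in Sox2 KO late ICMs, Esrra had a difference of 0.49 ± 0.19 (edgeR adjusted p = 0.0744) and Ppard of 0.51 ± 0.26 (0.183). Nr2c2 was at 18.7 to 31.3 CPM in KO and 13.8 to 53.1 CPM in Ctrl, a difference of -0.22 ± 0.22 whose interval ran from -0.66 to 0.21, with a log2 ratio of -0.55 within set 1 and 0.19 within set 2. Nr6a1 was at 3.62 to 31 CPM and 9.04 to 16.1 CPM (0.33 ± 0.30). The median of the members was 0.33 beside 0 for all genes. Trophectoderm markers summed to 698 to 1880 CPM in KO and 268 to 2930 CPM in Ctrl, with 3 of 12 called higher, 1 lower and none at 0, and 7 of 9 epiblast markers were called lower, Sox2 itself among them. Primitive endoderm markers summed to 616 to 1260 CPM in KO and 363 to 1750 CPM in Ctrl, with 1 of 7 tested called lower (Lama1). Their part in these values was not tested.

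Sox2 KO early ICMs, with 3.27% of all genes called, had 0 members called by edgeR, DESeq2 or limma, and 0 at an unadjusted p under 0.05. The largest of the 9 differences in size was -0.46 ± 0.65 for Rarg (18 UMIs in Ctrl and 12 in KO), followed by -0.40 ± 0.22 for Rxrb. Rara was at 1.3 to 6.02 CPM in KO and 0.998 to 4.31 CPM in Ctrl, with at least 1 UMI in each of the 16 embryos, and its difference was 0.12 ± 0.53.

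Morulae of the Oct4 line, with 0.804% of genes called, had 0 members called by edgeR, DESeq2 or limma. Ppard (0.65 ± 0.24, edgeR adjusted p = 0.187) and Nr6a1 (-0.55 ± 0.21, 0.21) were the 2 members at an unadjusted p under 0.05. Ppard was at 16.7 to 31.7 CPM in KO and 8.96 to 20.5 CPM in Ctrl, and all 8 KO embryos exceeded the Ctrl median. Nr6a1 was at 53.8 to 75.4 CPM in KO and 58.8 to 160 CPM in Ctrl, and all 8 KO embryos lay under the Ctrl median. In Sox2 morulae, with 0.00712% of genes called, edgeR, DESeq2 and limma called 0 members and 0 had an unadjusted p under 0.05.

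Whether the effect of Oct4 loss differed from that of Sox2 loss was tested as an interaction, and DESeq2 called the same number of members as edgeR in each of these tests while limma called 0. In late ICMs, where 6.3% of genes were called in this test, Nr2c2 was the 1 member called, with an Oct4 effect lower than the Sox2 effect by 1.15 ± 0.34 on the log2 scale (-1.15, edgeR adjusted p = 0.0178). With the set number of the late ICMs in the fit the difference was the same, -1.15, at an adjusted p of 0.0542. The differences for Nr6a1, Rxra and Ppard (0.84 ± 0.41, 0.74 ± 0.39 and 0.56 ± 0.35) were not called, with edgeR adjusted p from 0.214 to 0.377, so that a difference between Oct4 and Sox2 loss was not shown for them. In this late ICM test 5 of 12 trophectoderm markers were called higher. Of 9 epiblast markers 1 was called higher and 5 lower, and of 7 primitive endoderm markers tested 1 higher and 2 lower. In early ICMs, with 5.52% called, Ppard was the 1 member called: the Oct4 effect exceeded the Sox2 effect by 1.10 ± 0.35 (edgeR adjusted p = 0.0305, and 0.0604 with no filter). The Oct4 Ctrl early ICMs, which enter this and the MWT comparison, had a mean of 12.8 ± 4.61 CPM beside 25.2 ± 9.31 CPM in Oct4 KO, 23.2 ± 8.81 CPM in Oct4 MWT (n = 5) and 26.8 ± 8.53 CPM in Sox2 Ctrl. Nr5a2 differed by -0.82 ± 0.27 (edgeR adjusted p = 0.0435), under the fold minimum, and its Oct4 Ctrl mean was the highest of the early ICM groups. In this early ICM test 1 of 12 trophectoderm markers was called higher and 1 lower. Of 9 epiblast markers 1 was called higher and 3 lower, and of 7 primitive endoderm markers tested 1 lower. The part of the markers in the interaction results was not tested.

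The same test compared stages within a line. From morula to early ICM the Oct4 effect on Nr6a1 rose by 1.09 ± 0.34 (edgeR adjusted p = 0.0389), from -0.55 to 0.54, the 1 member called where 3.29% of genes were. Nr5a2 changed by -0.89 ± 0.27 (edgeR adjusted p = 0.0327), from 0.36 to -0.54, under the fold minimum. From early to late ICM, with 3.11% called, the Oct4 effect on Esrra rose by 1.09 ± 0.30 (edgeR adjusted p = 0.0158), from -0.33 to 0.76. Rxra changed by 1.10 ± 0.40 (edgeR adjusted p = 0.0981). In these tests of the Oct4 line, 1 of 12 trophectoderm markers was called higher in the first step and 2 in the second. Of 9 epiblast markers 4 were called lower in the first and 6 in the second, and of 7 primitive endoderm markers tested 1 higher in each. Their part in the receptor values was not tested. In the Sox2 line edgeR, DESeq2 and limma called 0 members in the step to early ICM (0.882% of genes called, 1 member at an unadjusted p under 0.05) and 0 in the step to late ICM (0.0427%, 1 member).

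From morula to early ICM several retinoid and orphan receptors of Ctrl embryos fell. In the Oct4 line 5 of 9 members were called, all lower, where 29% of all genes were called. In the Sox2 line 4 were called lower and 2 higher, where 31.9% were, and limma called Nr6a1, Rarg and Rxra. Nr6a1 dropped from 58.8 to 160 CPM in Oct4 Ctrl morulae to 12 to 38.3 CPM in early ICMs (log2 -2.36 ± 0.24, edgeR adjusted p = 1.97e-14), and in Sox2 Ctrl from 77.2 to 112 CPM to 5.97 to 21 CPM (-2.79 ± 0.24, 1.47e-17). Neither pair of groups overlapped.

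Rxra fell from 55.8 to 88.3 CPM to 9.66 to 20.7 CPM in Oct4 Ctrl (-2.36 ± 0.25, edgeR adjusted p = 7.33e-14) and from 50.7 to 73.5 CPM to 8.21 to 31.3 CPM in Sox2 Ctrl (-1.74 ± 0.24, 7.81e-10). Rarg (chromosome 15, 102234938 to 102257517, minus strand), the retinoic acid receptor gamma, fell by 2.58 ± 0.50 in Oct4 Ctrl, from 110 to 16 UMIs over 8 embryos each, and by 2.35 ± 0.49 in Sox2 Ctrl, from 107 to 18 UMIs. Again no pair of groups overlapped. Rxrb (chromosome 17, 34031812 to 34038399, plus strand) and Esrra were called lower in the Oct4 line (-1.54 ± 0.22 and -1.20 ± 0.19). In the Sox2 line they differed by -0.33 and -0.62, and a difference of these steps between lines was not tested.

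Nr5a2 was called lower in Sox2 Ctrl, from 205 to 388 CPM in morulae to 109 to 162 CPM in early ICMs (-1.07 ± 0.19, edgeR adjusted p = 1.3e-06), and differed by 0.05 ± 0.19 in Oct4 Ctrl. Rara rose in Sox2 Ctrl (2.45 ± 0.68, edgeR adjusted p = 0.00152), from 4 UMIs in 2 of 8 morulae to 24 UMIs in 8 of 8 early ICMs. Ppard also rose there, from 8.34 to 17.5 CPM to 15.4 to 43.9 CPM (1.18 ± 0.25, edgeR adjusted p = 3.05e-05).

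From early to late ICM edgeR, DESeq2 and limma called 0 members in the Oct4 line (15.6% of genes called) and 0 in the Sox2 line (2.9%), with 3 and 1 members at an unadjusted p under 0.05. In Oct4 Ctrl, Rarg passed the fold minimum without passing the test (-1.44 ± 0.82, edgeR adjusted p = 0.174), and Nr5a2 passed the test just under the minimum, at 148 to 269 CPM in early and 59 to 204 CPM in late ICMs (-0.97 ± 0.20, edgeR adjusted p = 4.17e-05). Scaling by total UMIs (-1.02) and the fit with no filter (-1.04) called it. In Sox2 Ctrl, Ppard was at 15.4 to 43.9 CPM in early and 11 to 19.8 CPM in late ICMs (-0.87 ± 0.25, edgeR adjusted p = 0.0164). In this later step 5 of 9 epiblast markers were called higher in Oct4 Ctrl, and of 12 trophectoderm markers 2 higher and 1 lower. Of 7 primitive endoderm markers tested there, 4 were called higher and 2 lower. In Sox2 Ctrl 4 trophectoderm and 3 primitive endoderm markers were called higher and no epiblast marker was called. Morulae were counted whole. Trophectoderm markers summed to 627 to 1260 CPM in Oct4 Ctrl morulae, with 1 of 12 at 0, and 428 to 1450 CPM in early ICMs, with 2 called higher and 3 lower. In Sox2 Ctrl they summed to 841 to 1110 CPM and 194 to 651 CPM, with 7 of 12 called lower. Epiblast markers summed to 579 to 986 CPM in Oct4 Ctrl morulae and 1880 to 3090 CPM in early ICMs, with 8 of 9 called higher, and to 550 to 1060 CPM and 1550 to 3880 CPM in Sox2 Ctrl, with 7 called higher. Between morulae and early ICMs, of 7 primitive endoderm markers tested 4 were called higher and 1 (Dab2) lower in each line. The part of these markers in the stage differences was not tested.

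**Figure D4:**
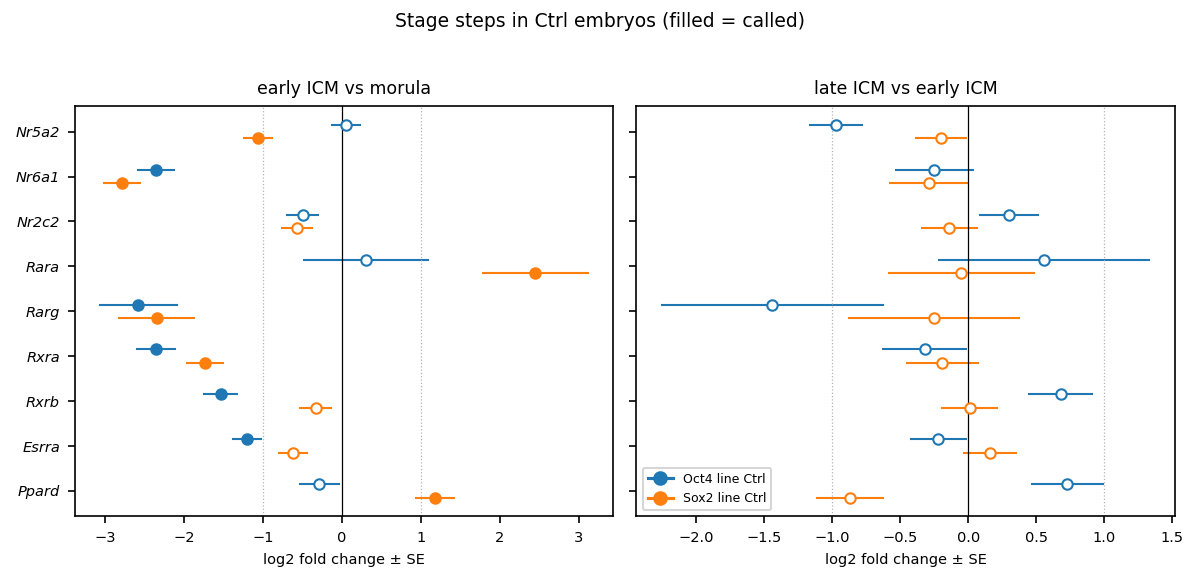
Log2 fold change (point) with its SE (bar) for the 9 tested members between consecutive stages in Ctrl embryos, blue for the Oct4 and orange for the Sox2 line, filled where called; the axes of the panels differ and dotted lines mark the fold minimum. Nr6a1, Rarg and Rxra are called lower in early ICMs of both lines, and no point is filled in the step to late ICM.

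The Ctrl embryos of both lines were compared at each stage, since they differ in line and in which maternal gene was lost. They also differed in the targeted genes. Pou5f1 was called higher in Sox2 Ctrl than in Oct4 Ctrl morulae (81.2 against 21.1 CPM) and late ICMs (111 against 43.8 CPM). In early ICMs it averaged 56.8 against 77.7 CPM and was not called. Sox2 averaged 174 CPM in Sox2 Ctrl and 311 CPM in Oct4 Ctrl late ICMs (-0.84 ± 0.26, edgeR adjusted p = 0.0383), under the fold minimum. The part of these levels in the receptor differences was not tested. In early ICMs, with 9.94% of genes called, Rara and Ppard were called higher in Sox2 Ctrl. Rara had 24 UMIs in 8 of 8 Sox2 Ctrl against 6 in 5 of 8 Oct4 Ctrl (1.75 ± 0.65, edgeR adjusted p = 0.0365). Ppard was at 15.4 to 43.9 CPM against 5.6 to 19.7 CPM (1.08 ± 0.25, edgeR adjusted p = 0.000513), a difference that stands beside the 0.97 between Oct4 KO and Ctrl. DESeq2 called both members and limma neither, and with no filter Rara had an adjusted p of 0.0817. In the same comparison 2 of 12 trophectoderm markers were called lower in Sox2 Ctrl (Cdx2 and Eomes), with sums of 194 to 651 CPM against 428 to 1450 CPM. Of 7 primitive endoderm markers tested 2 were called higher (Gata4 and Sox17) and 1 lower (Dab2), with sums of 209 to 861 CPM against 587 to 877 CPM. Of 9 epiblast markers 1 was called higher (Utf1) and 1 lower (Klf4), with sums of 1550 to 3880 CPM against 1880 to 3090 CPM. Their part in the Rara and Ppard differences was not tested. Nr5a2 differed by -0.70 ± 0.19 (edgeR adjusted p = 0.00339) and Rxrb by 0.79 ± 0.23 (0.00525), under the fold minimum. In morulae (6.98% of genes called) and late ICMs (2.63%) edgeR, DESeq2 and limma called 0 members, with 3 and 2 at an unadjusted p under 0.05.

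Ctrl embryos were then set against MWT embryos. Ctrl embryos keep only the paternal allele intact. They may differ from MWT embryos in working zygotic alleles as well as in the maternal gene, which cannot be told apart here. Oct4 MWT early ICMs also had no inhibitor listed, unlike their Ctrl. In the Oct4 line edgeR, DESeq2 and limma called 0 members in morulae (0.0646% of genes called), 0 in early ICMs (0.373%) and 0 in late ICMs (0.797%), with 0, 2 and 1 members at an unadjusted p under 0.05. In early ICMs Ppard was lower in Ctrl than in MWT by 0.83 ± 0.28 on the log2 scale (-0.83, unadjusted p = 0.0035 and adjusted p = 0.177 by edgeR), with 0 of 8 Ctrl embryos above the MWT median. With the stage taken from the source name it was called (-1.08, edgeR adjusted p = 0.000391). In that setting the embryos titled late ICM stand as early ICMs, and 2082 of 13923 genes were called against 52. Nr5a2 in these 3 comparisons differed by -0.32 ± 0.18, 0.47 ± 0.21 and -0.10 ± 0.19. In Sox2 early ICMs, with 2.58% of genes called, Rara was called higher in Ctrl than in MWT (2.77 ± 0.81, edgeR adjusted p = 0.0229), with 24 UMIs in 8 of 8 against 2 UMIs in 2 of 7 embryos. The ratio of the sums was 9.18 (exact Poisson interval 2.28 to 80.1), limma gave 0.71, under the fold minimum, and DESeq2 gave no adjusted p. In the same comparison the primitive endoderm markers summed to 209 to 861 CPM in Ctrl and 977 to 1400 CPM in MWT, with no overlap and 1 of 7 tested called lower (Gata6), and 2 of 9 epiblast markers were called higher (Tdgf1 and Fgf4). Of 12 trophectoderm markers 1 was called lower (Cdx2). Their part in the Rara difference was not tested.

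The fall from morula to early ICM was present in Oct4 MWT embryos too, where 27.6% of genes were called. Nr6a1 (-1.98 ± 0.28), Rarg (-2.85 ± 0.59), Rxra (-2.59 ± 0.30) and Rxrb (-1.44 ± 0.24) were called lower, with edgeR adjusted p from 1.11e-12 to 3.39e-05 and no overlap between the groups. With the stage taken from the source name Nr6a1, Rarg and Rxra were called and Rxrb was not (-0.33, edgeR adjusted p = 0.211). Esrra (-0.94 ± 0.23) and Nr5a2 (-0.72 ± 0.21) passed the test but not the fold minimum. Over this step 8 of 9 epiblast markers were called higher, with sums of 655 to 1160 CPM in morulae and 1770 to 3950 CPM in early ICMs. Of 12 trophectoderm markers 3 were called lower (728 to 1310 CPM and 328 to 808 CPM), and of 7 primitive endoderm markers tested 4 were called higher and 1 lower (667 to 1140 CPM and 477 to 626 CPM). Their part in the receptor values was not tested. From early to late MWT ICM, with 13.2% called, edgeR, DESeq2 and limma called 0 members, and 3 had an unadjusted p under 0.05. Nr2c2 was at 20.1 to 31.3 CPM in early and 25.8 to 70.8 CPM in late ICMs (0.71 ± 0.24, edgeR adjusted p = 0.0184).

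Other genes followed some members closely over the 16 group means. Among 7933 genes with at least 20 CPM in 1 group, the 3 highest Pearson correlations of log2 CPM with Nr5a2 were those of Abcb10 (0.941), Cdkl2 (0.939) and Mysm1 (0.938). Nr6a1 was followed by Sgk3 (0.981), Lonrf3 (0.98) and Kremen2 (0.976), and Rxra by Cdc20 (0.968), Eef1akmt1 (0.967) and Gm12616 (0.965). For Nr2c2 the highest were Skp2 (0.937), Nacc2 (0.907) and Dscc1 (0.899), for Ppard Vps52 (0.868), Pepd (0.847) and Dpagt1 (0.842), and for Rara, at few UMIs, Cxcl14 (0.892), Nptx2 (0.867) and Nup155 (0.864). The 16 points share stages and lines, which set much of their spread, and the values are descriptions of likeness.

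The rest of the nuclear receptor family gives the setting of these values. Of 39 other nuclear receptor genes listed, 37 were in the table and 18 were tested. In Oct4 KO early ICMs 1 was called higher and 3 lower, and in late ICMs again 1 higher and 3 lower, with Rarb higher and Hnf4a, Rxrg and Esrrb lower at both stages. These are 22.2% of the list at each stage, beside 10.9% and 18.1% of all genes called in these comparisons. Esrrb, a pluripotency factor related to Esrra, was at 20 to 72.7 CPM in KO and 132 to 223 CPM in Ctrl early ICMs (-2.20 ± 0.23, edgeR adjusted p = 8.73e-13) and at 0 to 26 CPM and 84.1 to 142 CPM in late ICMs (-3.61 ± 0.30, 2.33e-18). Hnf4a, known from liver and endoderm, had 1 UMI in KO against 268 in Ctrl early ICMs, a ratio of 0.00365 (exact Poisson interval 9.22e-05 to 0.0205), and 7 against 114 in late ICMs (-3.98 ± 0.51, edgeR adjusted p = 5.84e-10).

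Rxrg, the retinoid X receptor outside the member list, had 3 UMIs in Oct4 KO against 20 in Ctrl early ICMs (ratio 0.147, interval 0.028 to 0.495) and 1 against 27 in late ICMs (ratio 0.033, interval 0.000805 to 0.2). In Sox2 KO late ICMs it went the other way, at 10.2 to 42.9 CPM against 0 to 20.1 CPM in Ctrl (1.97 ± 0.46, edgeR adjusted p = 0.00129). Rarb, the retinoic acid receptor beta, rose in Oct4 KO early ICMs (1.03 ± 0.38, edgeR adjusted p = 0.042), Oct4 KO late ICMs (2.60 ± 0.52, 3.36e-05) and Sox2 KO late ICMs (1.67 ± 0.52, 0.0195). In Oct4 late ICMs it was at 5.04 to 36.7 CPM in KO and 0 to 8.5 CPM in Ctrl. The further calls in Sox2 KO late ICMs were the oxysterol receptor Nr1h3 (2.24 ± 0.73, 20 UMIs against 4) and the immediate early gene Nr4a1 (-1.83 ± 0.49, 11 against 47). On this list limma called 2 in Oct4 KO early, 3 in Oct4 KO late and 1 in Sox2 KO late ICMs, where edgeR and DESeq2 called 4 each. The 4 in Sox2 KO late ICMs are 22.2% of the list beside 6.95% of all genes. In Sox2 KO early ICMs edgeR, DESeq2 and limma called 0 of 18, with 4 at an unadjusted p under 0.05. In morulae these tools called 0 of 18 in the Oct4 line, with 3 at an unadjusted p under 0.05, and 0 in the Sox2 line, with 0. The list medians in Oct4 and Sox2 KO late ICMs were -0.26 and 0.04.

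Of 15 retinoid handling genes, 14 were in the table and 6 were tested. In Oct4 KO early ICMs 3 rose and 1 fell, in Oct4 KO late ICMs 1 rose and 2 fell, and in Sox2 KO late ICMs 1 rose and 1 fell, whereas edgeR, DESeq2 and limma called 0 in Sox2 KO early ICMs, with 1 at an unadjusted p under 0.05. Of all genes 10.9%, 18.1% and 6.95% were called in the first 3 comparisons, against 66.7%, 50% and 33.3% of only 6 tested. DESeq2 called 3, 3 and 2 there and limma 2, 2 and 1. Rdh10, which oxidizes retinol to retinaldehyde, was at 88.1 to 263 CPM in KO and 37.1 to 93 CPM in Ctrl Oct4 early ICMs (1.21 ± 0.24, edgeR adjusted p = 4.21e-05) and rose by 2.13 ± 0.27 and 1.78 ± 0.27 in Oct4 and Sox2 KO late ICMs. It was also the 1 gene of this list called in Oct4 KO morulae (1.12 ± 0.23, edgeR adjusted p = 0.00148). Dhrs3, which reduces retinaldehyde back to retinol, had 1 UMI in Oct4 KO against 23 in Ctrl early ICMs, 10 against 88 in late ICMs (-3.08 ± 0.50, edgeR adjusted p = 6.17e-07) and 31 against 92 in Sox2 late ICMs (-1.37 ± 0.42, 0.0176). Aldh1a3, which makes retinoic acid, rose in Oct4 KO early ICMs from 5.43 to 15.3 CPM in Ctrl to 14.5 to 67.8 CPM (1.84 ± 0.33, edgeR adjusted p = 6.83e-06). Cyp26b1, which degrades retinoic acid, had 14 UMIs in 4 of 8 KO embryos there and 0 in Ctrl, at least 4.57-fold higher. Rdh11 fell in Oct4 KO late ICMs, from 34 to 14 UMIs (-1.29 ± 0.46, edgeR adjusted p = 0.0235).

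Among 23 coregulators, the proteins that receptors recruit, 22 were tested. Oct4 KO early ICMs had 1 lower, Oct4 KO late ICMs 1 higher and 2 lower, whereas edgeR, DESeq2 and limma called 0 in Sox2 KO early and late ICMs, with 4 and 2 at an unadjusted p under 0.05. The calls are 4.55% of the list in early and 13.6% in late Oct4 KO ICMs, under the 10.9% and 18.1% of all genes. Ncoa1, a coactivator of many receptors, was at 2.59 to 13.4 CPM in KO and 8.45 to 33.9 CPM in Ctrl Oct4 early ICMs (-1.58 ± 0.30, edgeR adjusted p = 3.45e-05) and at 2.49 to 16 CPM and 18.3 to 79.1 CPM in late ICMs (-2.12 ± 0.30, 1.03e-08). Ncoa6 fell in Oct4 KO late ICMs (-1.03 ± 0.22, edgeR adjusted p = 0.000133), at 9.51 to 23.7 CPM against 27.2 to 41.9 CPM. Tbl1xr1, a subunit of the corepressor complex, rose there from 53.4 to 108 CPM in Ctrl to 143 to 247 CPM (1.15 ± 0.18, edgeR adjusted p = 1.06e-07).

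Of 17 genes listed as PPAR or fatty acid oxidation targets, 13 were tested, and Oct4 KO ICMs had 1 higher in early and 3 higher in late ICMs with none lower. These are 7.69% and 23.1% of the list beside 10.9% and 18.1% of all genes, and in Sox2 KO late ICMs 2 called higher are 15.4% beside 6.95%. In Sox2 KO early ICMs edgeR and limma called 0 and DESeq2 called 1, with 3 at an unadjusted p under 0.05. Fabp3, a fatty acid carrier, was at 1450 to 4730 CPM in Oct4 KO and 107 to 791 CPM in Ctrl early ICMs (3.06 ± 0.37, edgeR adjusted p = 1.11e-10) and at 2600 to 4460 CPM and 161 to 819 CPM in late ICMs (3.12 ± 0.37, 2.58e-11). Acadl, a long-chain acyl-CoA dehydrogenase, rose in late ICMs of both lines, by 1.20 ± 0.17 without Oct4 (edgeR adjusted p = 1.1e-08) and by 1.28 ± 0.16 without Sox2 (2.01e-09). Ucp2, a carrier of the inner mitochondrial membrane, rose in Oct4 KO late ICMs (1.31 ± 0.53, edgeR adjusted p = 0.0467) and in Oct4 KO morulae (2.69 ± 0.69, 0.0212), where it was the 1 gene of this list called by edgeR and limma called 0. With limma the list had 2 calls in Oct4 KO late and 1 in Sox2 KO late ICMs. Cpt2, which hands fatty acids over for oxidation, rose in Sox2 KO late ICMs (1.10 ± 0.24, edgeR adjusted p = 0.000472). The list median was 0.28 in Oct4 KO and 0.35 in Sox2 KO late ICMs, beside -0.01 and 0 over all genes. Among the KO comparisons Ppard itself was called in Oct4 late ICMs alone. Its difference between lines was called by edgeR in early ICMs (1.10) and not in late ICMs.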

How the data were processed

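Single morulae and single isolated ICMs were sequenced with 3′-end enriched single-end reads and UMIs. The authors extracted tags with UMI-tools, trimmed with Cutadapt, aligned to mm10 with TopHat2 (Bowtie2) using GENCODE vM23, assigned reads with featureCounts and estimated molecules with TRUmiCount. The deposited counts are whole UMI numbers per gene, not scaled. Regularized log2 values (rlog), which the authors computed in DESeq2, came in another deposited table and were tested with limma as an alternative. ERCC spike-ins were not used here.

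Counts were scaled by TMM and fitted with edgeR 4.0.16 (glmQLFit, glmQLFTest, R 4.3.3). One fit over the 96 Ctrl and KO embryos tested 14053 genes and one over all embryos, used where MWT enters, tested 13923. SE is the size of the log2 fold change over the root of F. P-values were adjusted over all genes tested. A called gene had an adjusted p under 0.05 and a log2 fold change of at least 1 in size. Levels are TMM-scaled CPM and are not compared between genes, since they are not per length. The labels do not say which embryos shared a litter, so p-values measure the spread between embryos only. Poisson intervals and floors (3 UMIs over a group) are at the 95% level and cover counting error only.

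The members and gene lists were chosen with earlier results of these data known. Named were the members, all called genes of the 4 receptor, retinoid, coregulator and PPAR lists in the 4 ICM KO comparisons if 6 or fewer per comparison, with called markers of other cell types added after their values were seen, and the 3 genes most like Nr5a2 and each member called in a KO comparison. The permutation test of Nr0b1 was added after the data were seen. The steps were tested on simulated counts. Alternatives were DESeq2 1.42.0, limma 3.58.1 on rlog, RLE and total-UMI scaling, no filter, no fold minimum, all embryos in 1 fit, the late set or the replicate number as a block, the source-name stage, and leaving out each embryo of the KO comparisons and each Oct4 MWT early ICM. Promoter windows are from RefSeq (GRCm38.p6), which matched all 10 members.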

Additional observations from a re-analysis of the deposited data

Results flagged for a closer look

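In 160 sets of a member's values within a group, 18 (11.2%) had 1 embryo standing apart from the rest by Dixon's test at the 95% level, all on the high side. Chance flags about 1 in 20 for normal values, which does not hold for genes mostly at 0, where a single UMI is enough: 12 of the 18 were Nr0b1 or Rara, and without these 6 of 128 (4.69%) remained. For Nr0b1 these were Oct4 MWT morula 10 (0.914 CPM), Oct4 Ctrl morula 15 (9.93 CPM), Oct4 KO morula 5 (8.05 CPM), Oct4 MWT early ICM 1 (3.14 CPM), Oct4 Ctrl early ICM 4 (1.09 CPM), Oct4 MWT late ICM 11 (13.6 CPM), Sox2 Ctrl early ICM 15 (7.02 CPM) and Sox2 KO early ICM 8 (14.5 CPM), from 1 to 12 UMIs each beside embryos at 0 to 2.78 CPM. For Nr6a1 they were Oct4 Ctrl morula 15 (160 CPM, others 58.8 to 102) and Oct4 Ctrl early ICM 4 (38.3 CPM, others 12 to 21.3), the same embryos that stood apart for Nr0b1 in those groups.

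Rara stood high in Oct4 Ctrl morula 11 (3.15 CPM), Oct4 MWT early ICM 7 (4.47 CPM), Oct4 KO late ICM 1-2 (3.36 CPM) and Sox2 Ctrl late ICM 2-6 (8.9 CPM), from 2 to 8 UMIs each. Rxra stood high in Oct4 MWT late ICM 20 (25.8 CPM, others 8.33 to 13) and Rxrb in Oct4 MWT late ICM 4 (31.9 CPM, others 17.2 to 24.1). Esrra stood high in Sox2 Ctrl early ICM 2 (65.9 CPM, others 19.7 to 37.4) and Sox2 KO early ICM 11 (53.3 CPM, others 29 to 34.9).

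The interaction test of edgeR called 4 members for a KO effect that differed between lines or stages, and limma called none of them. Ppard differed by 1.10 (Oct4 minus Sox2, early ICM, 5.52% of genes called) and Nr2c2 by -1.15 (Oct4 minus Sox2, late ICM, 6.3%). Nr6a1 differed by 1.09 (Oct4 line, early ICM minus morula, 3.29%) and Esrra by 1.09 (Oct4 line, late minus early ICM, 3.11%). The Ppard call was lost with no filter (edgeR adjusted p = 0.0604) and the Nr2c2 call with the late set as a block (0.0542).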

How the results depend on the processing

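No alternative turned the direction of a called member. The calls of Nr2c2, Nr6a1 and Rxra in Oct4 KO late ICMs held without each of the 16 embryos. Counts of members called moved as follows, and the cause was not tested. In Oct4 KO early ICMs the count of 1 became 0 with DESeq2, limma on rlog, the replicate block and the same embryos with no replicate block, 4 with no fold minimum, and ranged from 0 to 2 when 1 embryo was left out, and with no filter it was Nr0b1 in place of Rara. In Oct4 KO late ICMs 4 became 2 with limma (Nr2c2 and Rxra), 3 with total-UMI scaling (Ppard lost at 0.97), 5 with no filter or no fold minimum (Nr0b1 or Esrra added) and 3 to 4 with 1 embryo left out. In Sox2 KO late ICMs 0 became 1 with no filter (Nr0b1, log2 -4.62, edgeR adjusted p = 0.0189), 1 with no fold minimum (Rxra), and 0 to 1 with 1 embryo left out. The no-filter fit also gave Nr0b1 -5.24 (0.00211) in Oct4 KO late and 4.11 (0.00741) in Oct4 KO early ICMs.

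The interaction counts of 1 became 0 with limma in all 4 tests, 0 with no filter for Oct4 minus Sox2 in early ICMs, 0 with the late set as a block in late ICMs, 2 with no fold minimum for Oct4 minus Sox2 in early ICMs and for Oct4 early ICM minus morula, and 2 with no filter for Oct4 late minus early ICM. Sox2 Ctrl early ICM against morula went from 6 to 3 with limma. Sox2 against Oct4 Ctrl early ICMs went from 2 to 1 with no filter, 0 with limma and 4 with no fold minimum. Sox2 Ctrl against MWT went from 1 to 0 with limma, and to 0 with DESeq2, which gave Rara no adjusted p. Late against early ICM went from 0 in Oct4 Ctrl to 1 with total-UMI scaling (Nr5a2), 2 with no filter and 3 with no fold minimum, in Sox2 Ctrl to 1 and in Oct4 MWT to 2 with no fold minimum. With 1 Oct4 MWT early ICM left out, that last count was 0 to 1 (Rara, 4.21, edgeR adjusted p = 0.0053, without embryo 7) and early ICM against morula 4 to 5. With the Oct4 MWT stages taken from the source name, Rxrb lost its call in early ICM against morula (-0.33, edgeR adjusted p = 0.211), Ctrl against MWT early ICM went from 0 to 1 (Ppard, -1.08, edgeR adjusted p = 0.000391), and the genes called went from 52 to 2082 in that comparison and from 9 to 667 in morulae.

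Over all genes limma on rlog called fewer genes than edgeR in the 4 ICM KO comparisons, for example 1236 against 2544 in Oct4 KO late ICMs. DESeq2 called 41 against 6 for the Sox2 effect, late minus early ICM. Scaling by total UMIs moved the median of all genes by 0.14 in Oct4 MWT early ICM against morula. It lowered the share of higher calls from 48% to 37.6% in Sox2 KO late ICMs and from 65.8% to 54.2% in Oct4 Ctrl against MWT late ICMs. Embryos with the same number in Ctrl and KO deviated together with r from -0.10 to 0.28, so the numbers were not taken as pairing. Against the same embryos with no block, the replicate block changed no count of members called where it could be fitted. These fits held only 2 to 4 shared numbers per comparison, too few to judge the block by. No paired analysis was possible for Sox2 morulae and Oct4 late ICMs, with under 2 shared numbers. With few UMIs per embryo, depth limits Nr0b1, Rara and, in ICMs, Rarg.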
